A study of Mus musculus with 32 samples.

Results

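Csmd1, Csmd2 and Csmd3 (the 3 CUB and Sushi multiple domains genes) and Sprr1a (small proline-rich protein 1A) were followed in the β cells, the endothelial cells (ECs) and the macrophages (MΦs) of mouse islets. These 4 genes were taken by symbol from a table of 22850 genes. Csmd3 and Sprr1a had been chosen by their large increase in β cells after 1 week of doxycycline (Dox), so that contrast is given below as values from which no call is read, and Csmd1 and Csmd2 were added as the rest of the Csmd family. All mice carried 3 transgenes, MIP-GFP, RIP-rtTA and TetO-VEGF-A, so the controls carried them too. In these animals, called βVEGF-A mice, a rat insulin promoter drives the Dox-dependent activator, Dox in the drinking water induces the human VEGF-A transgene there, and an insulin promoter marks the same cells with GFP. Islets of several adult mice on a C57BL/6 background were pooled for each sample. They were sorted into ECs (CD31+), MΦs (CD11b+) and β cells (GFP+, without CD31 and CD11b). Sorted cells were taken before Dox (No Dox), after 1 week of Dox (1wk Dox), and 1 week after Dox withdrawal (1wk WD). RNA sequencing gave 32 libraries in 9 groups. In that order of time, the β cell groups held 4, 5 and 3 libraries, the EC groups 4, 1 and 5, and the MΦ groups 4, 2 and 4. Where 3 means are given below without times, they follow the same order. Some library IDs came from a separate, higher run of numbers. These were both 1wk Dox MΦ libraries, the 1wk Dox EC library and β cell replicate 3 at 1wk WD. What that run stands for is not stated, so in MΦs and ECs it cannot be told apart from 1wk Dox.

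CSMD proteins are very large membrane proteins whose outer part is built of alternating CUB and Sushi domains, the same domains found in complement proteins and their regulators. They are best known from the brain, where they act on complement and on the growth of neurites, and as genes often lost or mutated in tumours. SPRR1A is a small protein that transglutaminases cross-link into the cornified envelope, the tough layer under the membrane of skin cells. Outside the skin, Sprr1a is known as a gene that injured neurons switch on while their axons regrow and that stressed heart muscle expresses.

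Values are the authors' normalized scores, which are whole numbers and never below 1. The scores of a library summed to between 23465985 and 53441769, but the number of reads behind a score is unknown, so a score of 1 is read only as the lowest value of the table. Differences between groups are on the scale of log2(score + 1) and were tested with limma across all genes of the cell types fitted. A gene was called where the groups differed at least 2-fold with a p under 0.05 after Benjamini-Hochberg adjustment.

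The 3 Csmd genes are among the longest in the genome, whereas Sprr1a is short. In the mm9 build used for the table, Csmd1 spans 1643.05 kb of chromosome 8 (15892537 to 17535586, minus strand) and has 70 exons in its longest coding transcript. Csmd3 spans 1211.43 kb of chromosome 15 (47412183 to 48623609, minus strand), with 71 exons. Csmd2 spans 579.8 kb of chromosome 4 (127665101 to 128244903, plus strand), with 36 exons in the longest coding transcript of this annotation. Sprr1a covers 1.94 kb of chromosome 3 (92287874 to 92289817, minus strand), with 2 exons, and lies in the epidermal differentiation complex, a cluster of skin barrier genes.

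Of the 4 genes, Sprr1a had an entry in the promoter table from RefSeq used here, which is of another build than the scores (GRCm38.p6). The 250 bases before its start are shown because Sprr1a had the largest increase of the β cell table during Dox. They are written as chr3:92485882-92486131, minus strand, with capitals for the AP-1 motif (TGANTCA, the letters read by Jun and Fos family factors) and the TATA box (TATAAA).
Sprr1a promoter: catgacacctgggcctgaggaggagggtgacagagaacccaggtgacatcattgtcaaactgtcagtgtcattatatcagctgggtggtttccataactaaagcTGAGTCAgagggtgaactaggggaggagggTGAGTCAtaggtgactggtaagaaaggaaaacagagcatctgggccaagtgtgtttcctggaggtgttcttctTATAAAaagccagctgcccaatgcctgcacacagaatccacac
The AP-1 letters occur at positions -146 and -116 and the TATA box at -43, counted from the start of transcription. Among 32544 promoters of this table, 250 bases before to 50 after the start, 7.8% held AP-1 letters, 0.46% held them 2 or more times, 13.6% held a TATA box and 1.51% held both motifs. Of the other letters searched on both strands, CAGGTG (an E-box) occurred at -245 and -211 and is in 20.3% of promoters. Neither GGGCGG (a GC box, in 35.9% of promoters) nor TTCNNNGAA (STAT letters, in 8.3%) was in the Sprr1a window. These matches describe letters and are not evidence of binding.

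The sorted cells carried the markers of their labels, but the β cell libraries also held RNA of other pancreatic cells. The summed score of 10 β cell markers (insulin genes, Pdx1, Mafa and others) was 513966 to 10941261 in β cells and at most 3339 in ECs and 47759 in MΦs. The sum of 8 stromal markers (Pdgfrb, Col1a1, Rgs5 and others, of pericytes and fibroblasts) was 919 and 1036 in No Dox β cell replicates 1 and 2, 136777 and 492716 in replicates 3 and 4, 93643 to 453652 with Dox, and 22659 to 305266 after its withdrawal. The sum of 8 acinar markers was 29837 to 11545445 in No Dox β cells, 158 to 19833 with Dox, and 344 to 557928 after its withdrawal. The sum of 8 EC markers was 1246 to 8105, 1384 to 50423 and 6879 to 15909 in these 3 groups, and that of 8 macrophage markers 488 to 5307, 1410 to 5321 and 5174 to 7662. No Dox replicates 3 and 4 were set apart in the stromal and the acinar list, and every No Dox value of β cells given below includes them unless it says otherwise. In sorted bulk samples, fewer cells of a type and less RNA per cell cannot be told apart.

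Csmd3 had low scores in β cells before Dox and high scores during it. Its scores were 101, 27, 69 and 68 in No Dox replicates 1 to 4. At 1wk Dox they were 4977, 17999, 10680, 3451 and 9892. At 1wk WD they were 1514, 539 and 945. The 3 groups did not overlap, with 1wk Dox highest and 1wk WD between. The share of all genes whose groups separate in this way is not given, so nothing is read from such separation here or below. Means were 66.25 ± 30.32 (SD, n = 4), 9400 ± 5718 (SD, n = 5) and 999.3 ± 489.8 (SD, n = 3), so the mean at 1wk Dox was 141.9 times and that at 1wk WD 15.08 times the No Dox mean. Before Dox 60.27% of all genes had a higher mean score than Csmd3, at 1wk Dox 1.51% and at 1wk WD 28.73%, by scores not divided by transcript length, which favour a long gene. The log2 difference at 1wk Dox against No Dox was 7.04, the second largest increase of 16346 genes.

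Sprr1a had the largest increase of those 16346 genes and overlapped its 1wk Dox range after withdrawal, which Csmd3 did not. Its scores were 18, 62, 100 and 3 at No Dox. At 1wk Dox they were 2143, 5532, 3175, 3441 and 4493. At 1wk WD they were 2445, 1699 and 2022. Every 1wk Dox and 1wk WD library was above every No Dox library, while the 1wk WD range overlapped the 1wk Dox range. Means were 45.75 ± 43.99 (SD, n = 4), 3757 ± 1298 (SD, n = 5) and 2055 ± 374.1 (SD, n = 3). The mean at 1wk WD was 0.5471 of that at 1wk Dox, against 0.1063 for Csmd3. The log2 difference at 1wk Dox was 7.08. No Dox replicate 4, at 3, carried much of the spread, and without it the log2 difference was 6.18.

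Of all genes, 2 passed the threshold in that contrast (0.0122% of those tested), which are the pair chosen by it, so nothing is read from their calls. With a replicate block in the fit, 0 genes passed it. The genes with the lowest p among the rest were Plp2, a membrane proteolipid, at a log2 difference of 1.68, and Ndrg4, a gene of neurons and heart, at 1.38. By size, the next largest increases were Col1a1, a stromal marker, and Pcdh18, the latter at 5.60, and neither was called.

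At 1wk WD against No Dox no gene was called in β cells (0.0% of 16346), while 727 genes passed a fold change of 2 at an unadjusted p under 0.05 in limma. The No Dox libraries of this comparison also entered the choice of Csmd3 and Sprr1a, so their differences are given as values with no test. Sprr1a was 6.27 higher on the log2 scale (SE 0.86) and Csmd3 3.91 higher (SE 0.59). The lowest withdrawal score was 16.99 times the highest No Dox score for Sprr1a and 5.337 times it for Csmd3. Leaving out 1 library at a time gave 5.36 to 6.91 for Sprr1a, lowest without No Dox replicate 4.

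Other cells' markers also differed between the time points in β cell libraries. Against No Dox, stromal markers were higher in 8 of 8 during Dox and after withdrawal (median log2 difference 3.90 and 3.72), and acinar markers lower in 8 of 8 (-9.47 and -5.59). The EC markers were higher in 8 of 8 during Dox and after withdrawal (median 2.19 and 1.32) and the macrophage markers in 8 of 8 after withdrawal (median 2.01). None of these was called by limma. No Dox replicates 3 and 4, whose stromal sums lay within or above the 1wk Dox range, had Csmd3 scores of 69 and 68 and Sprr1a scores of 100 and 3. In the withdrawal library with the least stromal signal, replicate 3, Csmd3 was 945 and Sprr1a 2022. Without No Dox replicates 3 and 4 the log2 difference at 1wk Dox was 7.23 for Csmd3 and 6.69 for Sprr1a, and without replicates 1 and 2 it was 6.85 and 7.47. Across the 12 β cell libraries the median correlation with the 8 stromal markers was 0.49 for Csmd3 and 0.42 for Sprr1a, and with the 8 acinar markers -0.69 and -0.73, given as descriptions over libraries that share groups. With the 8 EC markers it was 0.49 and 0.39, and with the 8 macrophage markers 0.22 and 0.22. In the 1wk Dox library with the least EC signal, replicate 5, whose sum of 1384 lay within the No Dox range, Csmd3 was 9892 and Sprr1a 4493. The part of other cells' RNA in the Csmd3 and Sprr1a scores was not tested.

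Csmd1 behaved differently from Csmd3. Its scores at No Dox were 209, 130, 13437 and 51271, a range of 394-fold within 1 group. At 1wk Dox they were 5152, 2602, 4351, 5290 and 2873. At 1wk WD they were 28152, 33023 and 5294. All 1wk Dox libraries lay between the low and the high pair of No Dox libraries. The lowest 1wk WD library, at 5294, was just above the highest 1wk Dox library, at 5290.

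The log2 difference of Csmd1 at 1wk Dox against No Dox was 0.90, and it turned to -0.43 without No Dox replicate 2 and to -0.21 without replicate 1. At 1wk WD against No Dox it was 3.03 (SE 1.75, limma adjusted p = 0.63) and not called. Csmd1 correlated with the stromal markers over the β cell libraries. It was low in the pair of No Dox libraries where their sum was 919 and 1036, and highest, at 51271, where their sum was highest. The 5 libraries at 1wk Dox, with stromal sums of 93643 to 453652, had lower Csmd1 scores than withdrawal replicates 1 and 2, whose sums were 305266 and 284155. Withdrawal replicate 3, at a sum of 22659, had a Csmd1 score of 5294, just above them. Over the 12 β cell libraries 7 of 8 stromal markers had a correlation with Csmd1 above 0.8, with Pdgfra highest at 0.96, and 4 of 5 Schwann cell markers did, with S100b highest at 0.94 and the other one at -0.64. So did 3 of 8 macrophage markers (median 0.71, Ptprc highest at 0.89), Eng of the 8 EC markers (0.83) and Hhex of the 4 delta cell markers (0.81). The 10 β cell markers had a median correlation of -0.76 with it. The part of these other cells in the Csmd1 score was not tested.

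**Figure D1:**
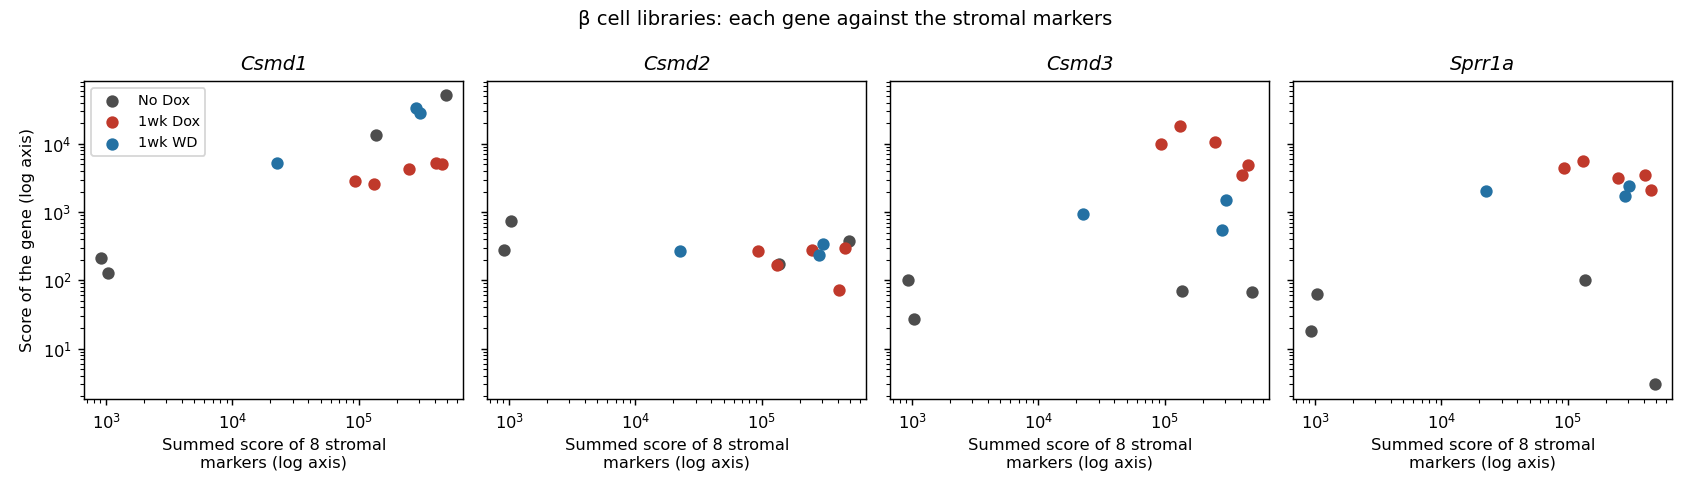
Score of each gene (log axis) against the summed score of 8 stromal markers (log axis) in the 12 β cell libraries, each point a library coloured by time point. Csmd1 is lowest, at 130 and 209, where stromal markers are lowest and highest, at 51271, where they are highest, but at 1wk Dox it stays between 2602 and 5290 at sums of 93643 to 453652. Csmd3 and Sprr1a split by time point, with No Dox low at both ends of the stromal range.

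Csmd2 stayed at a middling level throughout. Its β cell scores were 277, 736, 176 and 378 before Dox, 294, 168, 280, 71 and 270 with it, and 344, 235 and 265 after withdrawal. The groups overlapped. The log2 difference was -0.82 at 1wk Dox against No Dox. At 1wk WD against No Dox it was -0.30 (SE 0.57, 95% interval -1.55 to 0.957, limma adjusted p = 0.888).

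**Figure D2:**
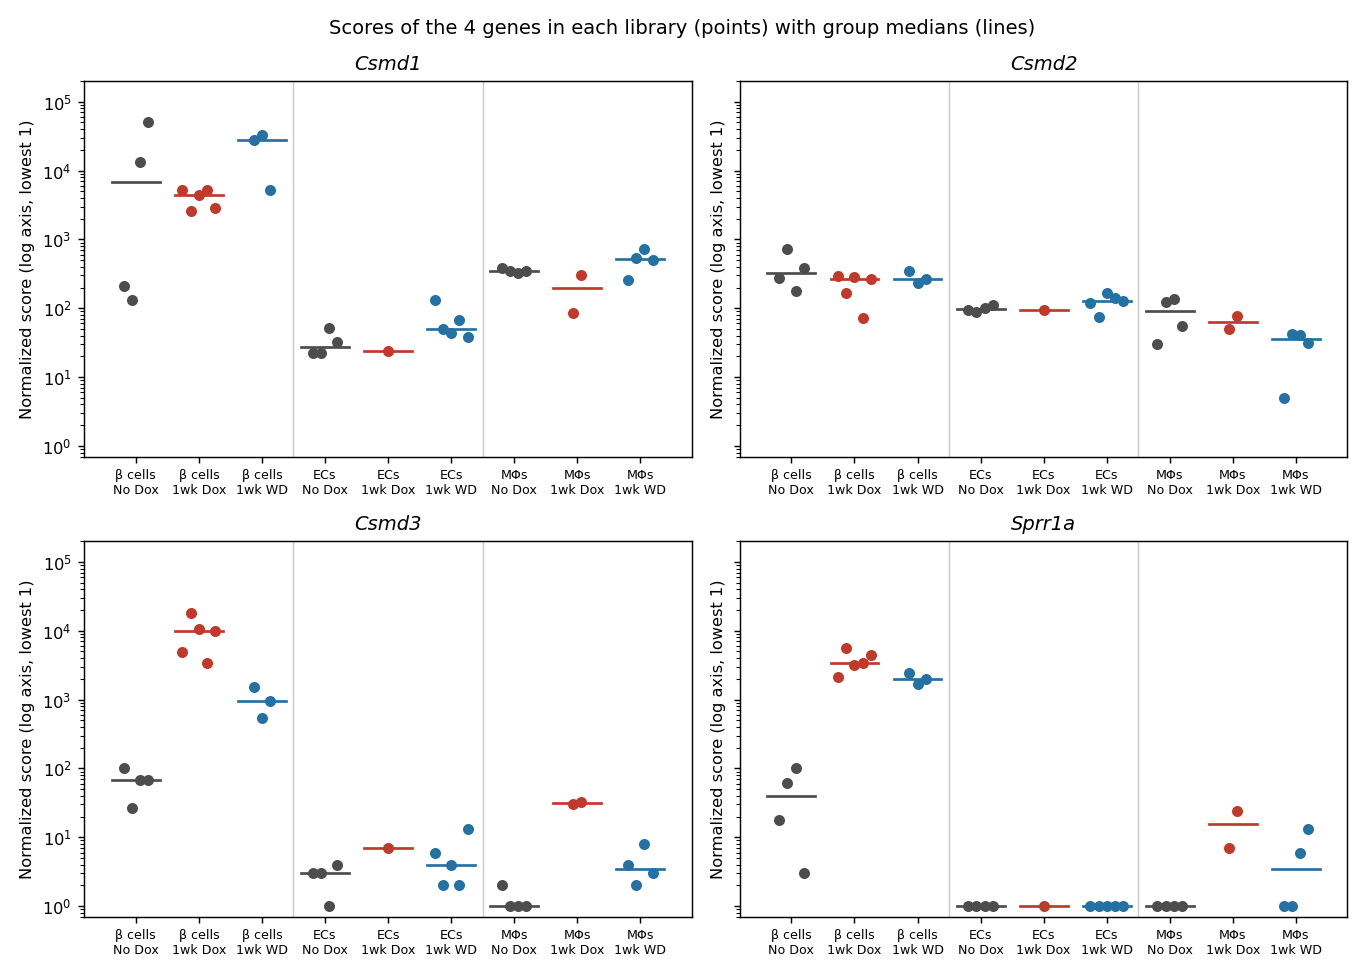
Normalized score (log axis, lowest 1) of Csmd1, Csmd2, Csmd3 and Sprr1a in each of the 32 libraries (points), with the group median (line), by cell type and time point. In β cells Csmd3 and Sprr1a leave the No Dox range (highest scores 101 and 100) in every 1wk Dox and 1wk WD library, Csmd1 spans 130 to 51271 at No Dox, and Csmd2 stays between 71 and 736.

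Levels were compared between the genes per kb of merged exons. At No Dox the mean β cell score per kb was 854.0 for Csmd1, 57.04 for Sprr1a, 23.1 for Csmd2 and 3.924 for Csmd3. The first value rests on replicates 3 and 4. In replicates 1 and 2 Csmd1 averaged 8.902 per kb, below Sprr1a (49.88) and Csmd2 (29.87), and without replicate 4 it averaged 241.2. At 1wk Dox the order was Sprr1a at 4684, Csmd3 at 556.8, Csmd1 at 212.9 and Csmd2 at 12.77. At 1wk WD it was Sprr1a at 2563, Csmd1 at 1164, Csmd3 at 59.2 and Csmd2 at 16.59. At No Dox the range over libraries of Sprr1a overlapped those of the other 3 genes, while Csmd3 lay below Csmd2 and Csmd2 overlapped Csmd1. Those of Csmd3 and Csmd1 overlapped at 1wk Dox, and none overlapped at 1wk WD.

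In MΦs, Csmd3 and Sprr1a were at or next to the lowest score before Dox and between 7 and 33 during it. Csmd3 was 2, 1, 1 and 1 before Dox, 30 and 33 with it, and 4, 2, 8 and 3 after withdrawal. Both 1wk Dox libraries were above all others. Against No Dox the difference with Dox was 3.87 (SE 1.18). It is given with no test, because Csmd3 passed the filter on low scores (a mean of 20 in one or more groups) in MΦs through the 1wk Dox group alone.

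Sprr1a was 1 in all No Dox MΦ libraries, 7 and 24 with Dox, and 1, 1, 6 and 13 after withdrawal, too low to pass the filter. RNA of β cells was present in these sorts. The summed β cell markers were 8203 and 18153 in the 1wk Dox MΦ libraries, in the same order as their Csmd3 and Sprr1a scores. In No Dox MΦ replicate 2 the sum was 47759, with Csmd3 and Sprr1a both at 1. No Dox β cells themselves scored only 27 to 101 for Csmd3 and 3 to 100 for Sprr1a, so nothing is read from that library. At 1wk Dox the β cells scored 3451 to 17999 and 2143 to 5532. The part of β cell RNA in the MΦ scores was not tested.

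Csmd1 was the Csmd gene with the highest scores in MΦs. It was 388, 349, 325 and 343 before Dox, 86 and 309 with it, and 261, 543, 730 and 501 after withdrawal. The higher 1wk Dox score, 309, was just below the lowest No Dox score, 325. The log2 difference was -1.10 at 1wk Dox against No Dox (SE 0.47, limma adjusted p = 0.205) and 1.54 at 1wk WD against 1wk Dox (SE 0.47, limma adjusted p = 0.29). Without 1wk Dox replicate 4 these differences were -0.18 and 0.63.

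Csmd2 in MΦs was 30, 124, 134 and 56 before Dox, 50 and 78 with it, and 5, 42, 41 and 31 after withdrawal. The highest 1wk WD score, 42, was just below the lower 1wk Dox score, 50. The difference at 1wk WD against No Dox was -1.61 (SE 0.72, limma adjusted p = 0.279), and without replicate 1 of 1wk WD, the library at 5, it was -0.93. Neither Csmd1 nor Csmd2 was called in MΦs in any of the 3 contrasts, where all genes gave 2.26% at 1wk Dox against No Dox, 0.626% at 1wk WD against No Dox and 0.0866% at 1wk WD against 1wk Dox. An unadjusted p under 0.05 in limma was reached by Csmd1 in both contrasts with 1wk Dox and by Csmd2 at 1wk WD against No Dox, beside 9.7% to 21.3% of all genes in these 3 contrasts.

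In ECs, Sprr1a was at 1 in all 10 libraries and Csmd3 never above 13. Csmd3 was 3, 3, 1 and 4 at No Dox, 7 in the single 1wk Dox library, and 6, 2, 4, 2 and 13 at 1wk WD. Csmd1 was 22, 22, 51 and 32 at No Dox, 24 with Dox, and 131, 50, 43, 68 and 38 after withdrawal. Its difference at 1wk WD against No Dox was 0.97 (SE 0.44, limma adjusted p = 0.22), with overlapping groups. In these libraries the stromal marker sum was 5108 to 11735 at No Dox and 16025 to 68530 at 1wk WD. The acinar marker sum was 58939 to 1563006 at No Dox and 680 to 56588 at 1wk WD, where 8 of 8 acinar markers were called lower, with a median log2 difference of -6.61. The part of either in the Csmd1 difference was not tested.

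Csmd2 in ECs was 93, 89, 100 and 113 at No Dox, 93 with Dox, and 121, 75, 164, 143 and 126 after withdrawal. Its difference at 1wk WD was 0.31 (SE 0.27, limma adjusted p = 0.519). Neither gene was called, beside 1.76% of all genes tested, and at an unadjusted p under 0.05 in limma there was 1, Csmd1, beside 21.9% of all genes. The change at 1wk WD was 1.91 larger in ECs than in MΦs for Csmd2 (SE 0.79, limma adjusted p = 0.179), or 1.24 larger without 1wk WD MΦ replicate 1, and 0.52 larger for Csmd1 (SE 0.55, limma adjusted p = 0.606), neither called, beside 1.4% of all genes.

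The cell types were compared at 1wk WD, in libraries that had no part in the choice of the genes. Sprr1a and Csmd3 passed the filter on low scores through the β cells alone, so their differences are given as values with no test. Sprr1a was 9.99 higher in β cells than in ECs on the log2 scale (SE 0.64) and 8.84 higher than in MΦs (SE 0.67). Csmd3 was 7.42 higher than in ECs (SE 0.63) and 7.57 higher than in MΦs (SE 0.66). Csmd1, which passed it in each cell type, was 8.14 higher than in ECs (SE 0.58, limma adjusted p = 1.45e-07) and 5.15 higher than in MΦs (SE 0.60, limma adjusted p = 9.06e-06), beside stromal sums of 22659 to 305266 in these β cell libraries. The lowest β cell scores at 1wk WD were 1699 for Sprr1a, 539 for Csmd3 and 5294 for Csmd1. The highest scores at that time were 1, 13 and 131 in ECs and 13, 8 and 730 in MΦs. The calls of Csmd1 stand beside 39.9% of all genes called between β cells and ECs and 46.2% between β cells and MΦs.

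Csmd2 was 3.52 higher in β cells than in MΦs (SE 0.62, limma adjusted p = 0.000306) but not called against ECs, at 1.18 (SE 0.60, limma adjusted p = 0.114). ECs and MΦs differed in Csmd1 and Csmd2, beside 40.3% of all genes called. Csmd2 was 2.34 higher in ECs (SE 0.55, limma adjusted p = 0.0026) and Csmd1 was 2.99 lower in ECs (log2 difference -2.99, SE 0.53, limma adjusted p = 0.000309). The differences of Csmd3 (0.15) and Sprr1a (-1.15) lay at low scores in both cell types. Before Dox the Csmd1 difference between ECs and MΦs was -3.51 (SE 0.34, limma adjusted p = 1.31e-05), in the same direction, and that of Csmd2 was 0.43 (SE 0.49, limma adjusted p = 0.486), beside 39.6% of all genes called.

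**Figure D3:**
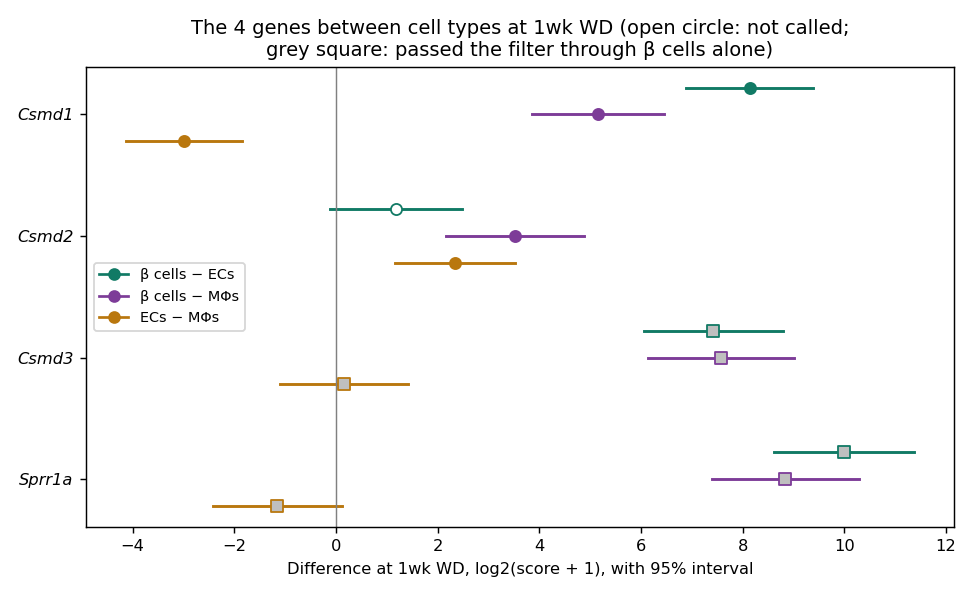
Differences between cell types at 1wk WD for each gene on the log2(score + 1) scale, with 95% intervals from limma (β cells n = 3, ECs n = 5, MΦs n = 4), with circles filled where called and open where not, and grey squares for the genes that passed the filter through β cells alone, whose calls are not shown. Sprr1a, Csmd3 and Csmd1 are far to the right of 0 for β cells against ECs (9.99, 7.42 and 8.14), whereas Csmd2 at 1.18 has an interval that includes 0.

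At 1wk Dox every β cell score of Sprr1a, from 2143 up, was above every score of the 25 other cornified envelope genes measured, of which Ppl reached 1520. Its neighbours on chromosome 3, Sprr3, Sprr1b, Sprr4 and Ivl (involucrin), were at 1 in all β cell libraries but for a score of 2 for Sprr3 in 1 withdrawal library. Of the 25 genes, 19 were too low to test in β cells. None of the 6 tested was called. Among these, Ppl (periplakin, a linker of the envelope to keratin filaments) had means of 696.8, 1042 and 1042 over the time points. Evpl (envoplakin, its partner) had means of 160.5, 290.2 and 281.7, and Lor (loricrin) 20.75, 55.0 and 67.33. Tgm1, a cross-linking transglutaminase, had means of 27.0, 23.2 and 79.33. The 6 keratinocyte markers together summed to no more than 57 in any β cell library, with Krt14, Krt6a and Krt16 at 1 in all of them. How reads shared by close Sprr copies were counted is not given in the sources used here.

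**Figure D4:**
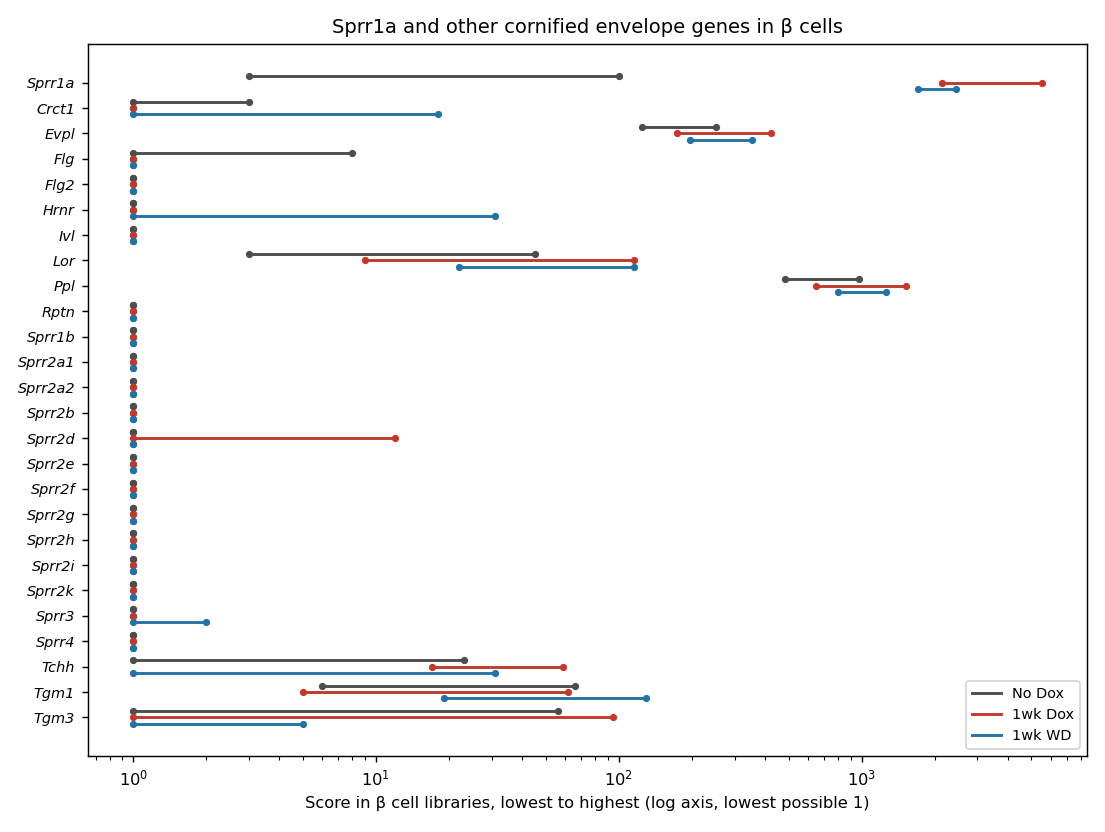
Lowest to highest score in β cell libraries at each time point (log axis, lowest possible 1) for Sprr1a and 25 other cornified envelope genes. Sprr1a moves from 3 to 100 at No Dox up to 2143 to 5532 at 1wk Dox, while its Sprr relatives stay at or close to 1 and Ppl and Evpl overlap between time points.

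Among the genes next to the Csmd genes, Myom2, CK137956, Gjb5, 4930548G14Rik and Kcnv1 scored too low to test in β cells. The rest were tested and none was called. Against No Dox, Csmd3 and Sprr1a alone made up the 0.0122% of all genes called during Dox, and 0.0% were called after withdrawal. Nothing is therefore read from the absence of calls among these neighbours. Trps1 and Eif3h, on one side of Csmd3, had log2 differences of -0.06 and 0.13 at 1wk Dox against No Dox, and Kcnv1 on the other side had scores of 1 to 16. Angpt2, the vessel-destabilizing ligand of the TEK receptor beyond Csmd1, had means of 368.8, 852.4 and 643.0, with a log2 difference of 1.11 at 1wk Dox (limma adjusted p = 0.584). Zscan20 next to Csmd2 was at -0.34. Hmgb4, which overlaps Csmd2 on the opposite strand, was at 1 in every library.

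Other genes with CUB or Sushi domains were measured in a list of 11. None was called over time in β cells. The highest were Sez6l2 (means 7464, 7360 and 10020) and Sez6l (9584, 7682 and 6832), relatives of the seizure gene Sez6. Svep1, a large matrix protein with many Sushi domains, ranged from 345 to 19902 within No Dox, as Csmd1 did, and was among the 5 genes most like Csmd1 over all libraries. Between cell types at 1wk WD, Sez6l and Sez6l2, which passed the filter in each cell type, were 5.66 and 2.52 higher in β cells than in ECs on the log2 scale (limma adjusted p = 0.000215 and 7.5e-05), beside 39.9% of all genes called. Of the 10 tested, 9 were called higher than in ECs and none lower. Against MΦs 8 were called higher, among them Sez6l (7.79) and Sez6l2 (6.07). Srpx is counted both times although it passed the filter through β cells alone. Only Susd1 (-1.43) and Susd3 (-4.90) were called lower in β cells, beside 46.2% of all genes. Svep1 was 7.23 higher in β cells than in ECs and Srpx2, a secreted Sushi protein, 5.21 higher, both called. In the same comparison 7 of 8 stromal markers were called higher in β cells (median 6.04), and 8 of 8 were against MΦs (median 4.49). The part of stromal cells in these differences was not tested.

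CUB and Sushi domains are found in complement proteins and their regulators, among other proteins, so complement genes were listed too. Of 17 complement components tested in MΦs, 5 rose at 1wk Dox, beside 2.26% of all genes called. C1qb and C1qc, which encode chains of the recognition molecule C1q, rose by 1.42 and 1.79 on the log2 scale (limma adjusted p = 0.0101 and 0.00407). C2 and Cfb, encoding the proteases of the classical and alternative convertases, rose by 2.48 and 2.60 (limma adjusted p = 0.0101 for both), and Cfp (properdin) by 1.45 (limma adjusted p = 0.0092). At 1wk WD against No Dox 4 were called higher, beside 0.626% of all genes, C2 (1.81), C3 (1.12), C4b (1.86) and Cfb (2.08), with limma adjusted p from 0.0225 to 0.0429. The median difference of the 17 was 1.14 and 1.08 in those contrasts, against 0.03 and 0.00 over all genes. Without 1wk Dox replicate 5 the count at 1wk Dox was 2, and without replicate 4, when no gene of the table was called, it was 0. When only the 2 groups compared were fitted, the count was 1 in either contrast, and with the replicate block it was 0 in either. At 1wk WD it was 0 without replicate 2, 3 or 4 of that group. The acinar sum was 23194 to 10667310 in No Dox MΦs, highest in replicate 2, 859 and 3054 with Dox and 1409 to 192635 after withdrawal. At 1wk Dox 8 of 8 acinar markers were lower, 4 of them called, with a median log2 difference of -8.37, and 7 of 8 EC markers were higher, none called, with a median of 1.51. Of 8 macrophage markers 1 was called higher at 1wk Dox. At 1wk WD against No Dox all stromal markers were higher in MΦs, from 0.10 (Rgs5) to 2.25 (Lum), none called. When No Dox replicate 2 was left out, 5 complement components were called during Dox and 3 after withdrawal. The part of other cells' RNA in these differences was not tested. Both 1wk Dox MΦ libraries also had the separate run of library IDs, which cannot be told apart from Dox here.

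In ECs at 1wk WD, C1s (2.19, limma adjusted p = 0.017) and Masp1 (2.00, limma adjusted p = 0.00168) rose, 2 of 9 components tested, beside 1.76% of all genes called. Stromal sums were higher and acinar sums lower in the same comparison, as given for Csmd1 in ECs, and their part was not tested. Serping1 (C1 inhibitor) ranged from 653 to 18243 in β cells at No Dox.

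Sprr1a is known from injured neurons, so genes of that response were listed, 12 in all. None was called in β cells. Atf3, Klf6 and Jun, the regeneration-associated transcription factors of the list, had β cell means of 10500, 5738 and 12810 at No Dox and 7990, 9462 and 11820 at 1wk Dox. Stmn4, a microtubule-regulating stathmin, was 1 to 34 before Dox, 76 to 182 with it and 99 to 297 after withdrawal without being called, and had the highest correlation of the list with Sprr1a, 0.82 over the 12 β cell libraries. In ECs Sox11 rose at 1wk WD by 1.82 (limma adjusted p = 0.0384), 1 of 11 tested beside 1.76% of all genes called, in the comparison where stromal markers were higher and acinar markers lower, whose part was not tested. That call was lost when any No Dox library or replicate 2, 3 or 4 of 1wk WD was left out. The ligands, receptors, kinases and other signalling genes of the IL-6 family, which induce Sprr1a in other tissues, held 18 genes. Their highest, Lifr, Jak1 and Stat3, had β cell means of 6578, 7582 and 9350 at No Dox and 4186, 8234 and 8405 at 1wk Dox. The single call of that list over time was Clcf1 in MΦs, which fell by 1.12 at 1wk WD against 1wk Dox (limma adjusted p = 0.0192), beside 0.0866% of all genes called. That call was lost under 1 or more of the other settings given below. In the same contrast all β cell and EC markers were lower and all acinar markers higher, none called. Their part was not tested.

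Over the 6 lists together, 0 of 74 list genes tested in β cells were called by limma in each of the 3 contrasts, where 5, 7 and 2 had an unadjusted p under 0.05, beside 6.99%, 8.17% and 6.31% of all genes. All genes gave 0.0% called at 1wk WD against 1wk Dox.

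The genes most like Csmd3 and Sprr1a over the 12 β cell libraries were few. Likeness is the Pearson correlation of log2 scores, a description over libraries that share groups. For Sprr1a the nearest were Anxa10 (an annexin, 0.94), Tnfrsf12a (the receptor of TWEAK, 0.93), Trim67 (0.93), Plp2 (0.89) and Dusp4 (a MAP kinase phosphatase, 0.89). Anxa10 had means of 39.25, 613.0 and 574.7, and Tnfrsf12a 57.25, 549.4 and 363.0. For Csmd3 they were Slx1b (0.93), Plp2 (0.92), Fam46a (0.90), Igf1r (the IGF-1 receptor, 0.90) and Sprr1a itself (0.87). Sprr1a was chosen together with Csmd3 for an increase in the same libraries, so nothing is read from the last value. Plp2 means were 337.0, 1077 and 818.3, and Igf1r means 8678, 17890 and 13890. No more than 3 genes correlated above 0.9 with Csmd3, and 3 with Sprr1a.

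Csmd1, in contrast, had 557 of 16346 genes above 0.9 in β cells. Its nearest were Ptprz1 (0.99), Nlrp1b (0.98), Dpep1 (0.98), Thsd7a (0.98) and Zfhx4 (0.98). Ptprz1, a receptor phosphatase known from glia, ranged from 111 to 2705 before Dox, 486 to 937 with it and 739 to 3320 after withdrawal. For Csmd2 the nearest were Stxbp4 (0.92), Ptbp2 (0.91), Apex2 (0.90), Nfat5 (0.89) and Lphn3 (0.89). Between members, the correlation of Csmd1 with Csmd3 over the β cell libraries was 0.17, and that of Csmd2 with Csmd3 -0.44.

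Over all 32 libraries, where the cell types themselves set much of the correlation, Csmd3 and Sprr1a were each the gene most like the other (0.96). The pair was chosen for an increase in the same 1wk Dox β cell libraries, which are among the 32, so nothing is read from that value. Next came Plb1, 4732456N10Rik and Vgf for both, with Ndrg4 for Csmd3 and Anxa10 for Sprr1a. Vgf, a neuroendocrine secreted peptide precursor, had β cell means of 344.5, 1764 and 1851. For Csmd1 the nearest were Abca8a (0.97), Itgbl1, Chl1, Svep1 and Zfp536. Abca8a ranged from 96 to 41792 in No Dox β cells, again with the range of Csmd1. For Csmd2 they were Mfap3l (0.91), 1700040L02Rik, Kcnn3, Abhd3 and 6430573F11Rik.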

How the data were processed

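Sorted islet cells were profiled by RNA sequencing in 32 libraries (50 bp reads). Per the methods and the submitters' processing notes, the authors aligned reads with TopHat (2.0) to mm9 and deposited a score per gene normalized by TMM in Avadis NGS. The deposited score is a rounded whole number of at least 1, so read depth is not known and no counting interval can be given. The table had 6 further columns of sample values that were not used. Groups came from the sample labels, and 1 label misspells beta and was read as β cell. The labels and the methods differ on the RNA quality minimum and fragment length.

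Scores were analysed as log2(score + 1) in limma 3.58.1 (R 4.3.3) with empirical Bayes and a trend on mean expression, after requiring a mean score of 20 in one or more groups fitted. All time points of a cell type shared 1 fit. Benjamini-Hochberg adjustment ran over all genes tested. The fit was tested on simulated data. The 4 genes and all gene lists were chosen with earlier results of these data known. Named genes were the 4 members, per member the 5 genes most correlated over β cell and over all libraries, the 2 nearest genes on each side, list genes called over time and the 3 highest of each list, of which 1 is not reported here. Stmn4, Tgm1, Susd1, Susd3, Srpx2 and Pcdh18 were picked after their values were seen. P-values measure the spread between pooled samples. Promoter letters came from RefSeq, and no sequence was read for the Csmd genes. Alternatives were other pseudocounts (0.1 and 20), filters (none and 200), scalings, variance models, groups fitted, a replicate block and leaving out each library.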

Additional observations from a re-analysis of the deposited data

Results flagged for a closer look

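Of 21 groups of 4 or 5 libraries of the 4 genes, 2 held a library that stood apart from the rest by Dixon's ratio on the log2 scale, where chance gives about 1 in 20. Csmd2 in 1wk WD MΦs was 5 in replicate 1, against 31 to 42 in the others. Without that library the difference from No Dox was -0.93 in place of -1.61, and the difference between ECs and MΦs at 1wk WD was 1.67 in place of 2.34 and was still called. Csmd3 in No Dox MΦs was 2 in replicate 1, against 1 in the other 3, a step of the smallest size the table can hold.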

How the results depend on the processing

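In the comparisons where they were tested, the 4 genes kept their direction and their side of the threshold under the other pseudocounts, filters, scalings, variance models and groups fitted and under leaving out each library, with these exceptions, whose cause was not tested. Leaving out 1 library at a time gave log2 differences of -0.43 to 2.44 for Csmd1 in β cells at 1wk Dox against No Dox, -0.61 to 0.07 for Csmd2 in β cells at 1wk WD, -0.64 to 0.10 for Csmd2 in MΦs at 1wk Dox, -0.19 to 0.45 for Csmd3 and -1.54 to -0.60 for Sprr1a between ECs and MΦs at 1wk WD, the last called without MΦ replicate 1, and 5.36 to 6.91 for Sprr1a in β cells at 1wk WD, called without No Dox replicate 3 or 4. With a pseudocount of 20, Sprr1a in β cells at 1wk WD (5.24) and Csmd2 between β cells and ECs (1.06) were called, the latter also when only those groups were fitted (1.18). Csmd3 in MΦs at 1wk Dox was called with no filter on low scores and with no trend, both at 3.87. Calls of Sprr1a in β cells at 1wk WD and of Csmd3 in MΦs support nothing, since their No Dox level or the filter chose them. Leaving out the No Dox β cell replicates 1 and 2, chosen after seeing the data, gave 0.11 for Csmd2 at 1wk WD. Same-numbered samples had correlations above 0.1 in 3 of 10 β cell pairs, 1 of 6 MΦ pairs and 2 of 4 EC pairs over time, in 4 of 10 pairs of cell types at 1wk WD, and in 2 of 4 pairs of ECs and MΦs at No Dox, where they reached 0.414 against 0.159 between different numbers. Since not every pair was above 0.1 in any of these fits, the numbers were not taken to pair the samples. The replicate block gave -0.19 for Csmd3 between ECs and MΦs at 1wk WD and took the calls of all genes at 1wk Dox from 2, which are Csmd3 and Sprr1a, to 0 in β cells and from 340 to 3 in MΦs. It changed no call of the 4 genes in the other comparisons where they were fitted with a test.

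In β cells at 1wk Dox the counts of genes called were 1 to 26 when a library was left out, lowest without No Dox replicate 1, where Csmd3 and Sprr1a were thus not both called, and highest without No Dox replicate 2, and 0 to 6 under the other alternatives. In β cells at 1wk WD they were 0 to 2, and 0 to 1 against 1wk Dox. In MΦs they were 0 to 487 at 1wk Dox, 11 to 123 at 1wk WD and 0 to 79 at 1wk WD against 1wk Dox, and in ECs 27 to 311, and for the difference between ECs and MΦs 92 to 362. No list gene was called in β cells under any of these alternatives. Complement components called in MΦs ranged from 0 to 6 at 1wk Dox and from 0 to 4 at 1wk WD, and in ECs from 1 to 2, and the list calls of Sox11 and Clcf1 were each lost under one or more alternatives. Of the 5 genes most like a member, rank correlation kept 0 to 3. Leaving out 1 library kept as few as 0 of them for Csmd2, over the β cell and over all libraries, and as few as 2 for Csmd1 and Sprr1a. Read depth is unknown, so scores near 1 cannot be told from absence of reads.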
